A study of Mus musculus with 8 samples.

Results

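The expression of 10 listed genes of the cartilage programme was examined in C3H10T1/2 cells, a mouse embryonic cell line able to form several mesenchymal cell types, by RNA sequencing. The genes were the transcription factors Sox9, Sox5 and Sox6, the proteoglycan genes Acan and Prg4, the matrix adaptor genes Comp, Matn2, Matn3 and Matn4, and the ion channel gene Trpv4. They were taken by symbol from a deposited table of read counts for 18306 genes, in which 9 of the 10 were found, and Acan was not analysed here. Of these 9, 8 had counts in all 8 libraries and passed the filter on low counts. Sox5 had 14 counts in all, spread over 5 of the 8 libraries, and did not pass. Per the labels, cells grown in 10% serum were kept for 24 h in medium without serum and then treated for 24 h with 5 µM sphingosine 1-phosphate (S1P, a bioactive lipid with its own family of membrane receptors) or with its vehicle, 0.1% fatty acid-free albumin. There were 4 vehicle libraries, replicates 1 to 4, and 4 S1P libraries, replicates 5 to 8, all from the same wild-type line in monolayer and without a chondrogenic stimulus named in the labels. Nothing states that replicates were separate cultures, so the spread on which each p-value rests is that among these samples and may be technical.

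Cartilage is built by chondrocytes, whose commitment depends on SOX9, a DNA-binding factor of the SOXE subgroup. SOX5 and SOX6, of the SOXD subgroup, bind next to it and strengthen the activation of cartilage genes. The matrix they switch on holds collagen II fibrils, aggrecan for water binding and a set of oligomeric adaptor proteins, among them COMP and the matrilins, that link fibrils to proteoglycans. Lubricin, the product of Prg4, is made by the cells of the joint surface, and the calcium channel TRPV4 carries osmotic and mechanical signals in chondrocytes.

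Each library summed to between 13750303 and 13761544 counts, so depth was nearly equal. A count of 0 allows a level of up to 0.213 to 0.223 CPM (counts scaled to library size, here with edgeR's TMM composition factors), taken as 3 counts and covering counting error alone. Vehicle replicate 4 stood apart. Its log2 CPM minus the mean of vehicle replicates 1 to 3 followed the GC content of the transcripts (r = 0.75 across 11634 genes, which are not independent replicates), and mitochondrially encoded genes took 2.5% of its counts, against 3.45% to 3.83% in the other 7 libraries. Results that rest on it are also given without it. S1P replicate 5 had the lowest value of its group for 6 of the 8 tested genes, and vehicle replicate 1 for 4 of the 8.

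Among the cartilage genes, Matn3 rose and Prg4 fell after S1P, and the other 6 tested genes did not pass the threshold (edgeR quasi-likelihood test over 11844 genes, p adjusted by the method of Benjamini and Hochberg and written as FDR, threshold 0.05). Over all tested genes, 5.6% rose and 2.9% fell, 8.5% in either direction, and 8 genes are too few to be set apart from the rest on such counts. Without adjustment, 3 of the 8 had a p under 0.05, Matn4 being the third, against 24.9% of all tested genes. The groups did not overlap for 1 of the 8, Prg4, against 19.1% of all tested genes, 7.21% with S1P lower. The log2 fold change, S1P minus vehicle, was negative for 7 of the 8 and for 53.9% of all tested genes, with a median of -0.84 over the 8 and -0.04 over all. Without vehicle replicate 4 it was negative for 6 of the 8 with a median of -0.27. With S1P replicate 5 also left out it was negative for 4 of the 8 with a median of -0.13. In whole cultures such as these, fewer cells of a type and less RNA per cell cannot be told apart.

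**Figure D1:**
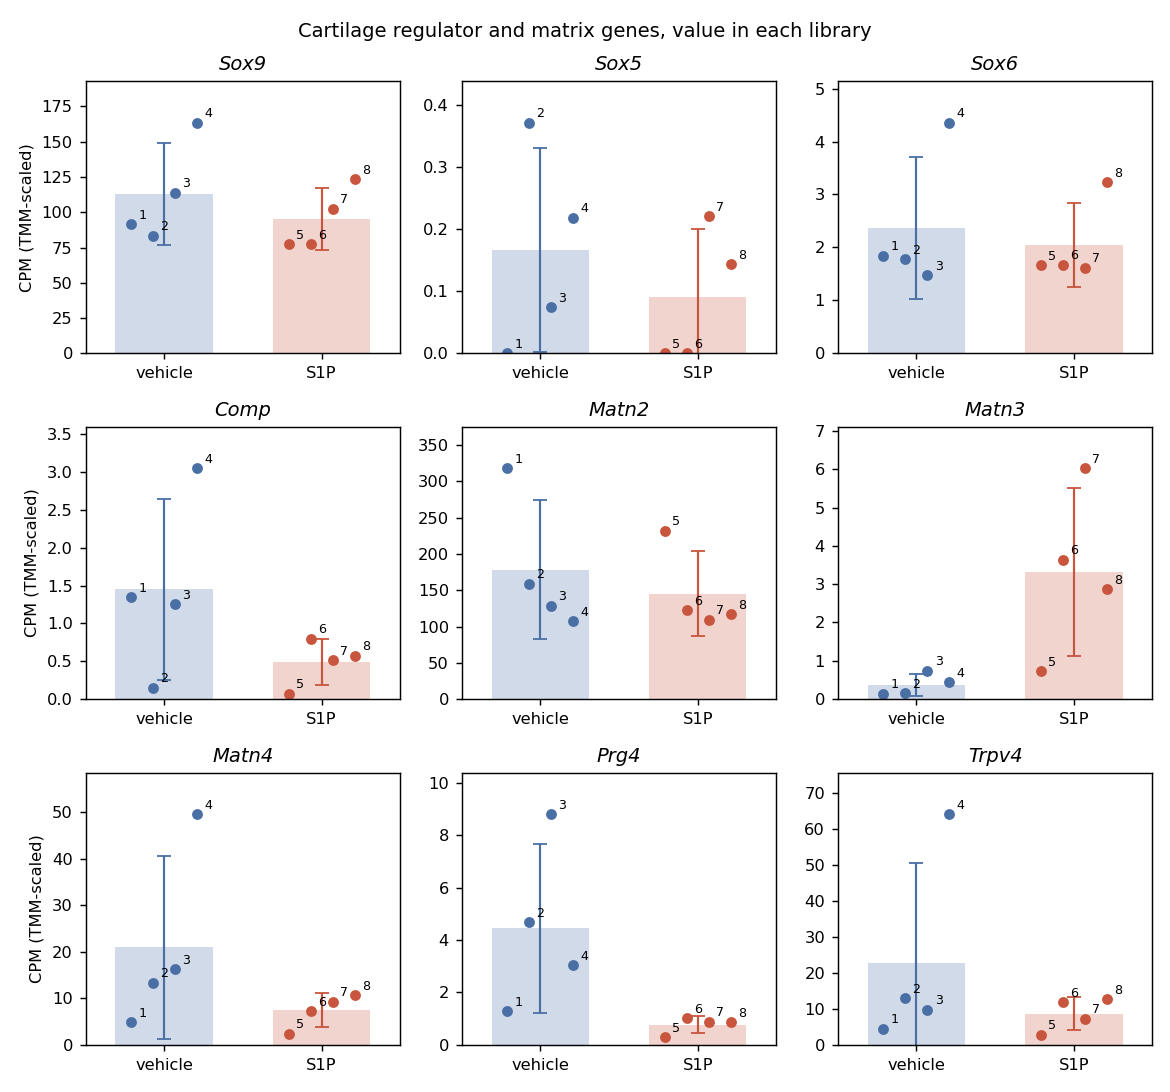
CPM of the 9 cartilage genes found in the table, 1 panel per gene, with 4 vehicle (blue) and 4 S1P (red) libraries as points labelled by replicate number; bars are group means and error bars 1 SD, cut off at 0. Only Prg4 separates the groups completely, Matn3 is high in S1P replicates 6 to 8, and vehicle replicate 4 is the highest library for Sox9, Sox6, Comp, Matn4 and Trpv4.

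**Figure D2:**
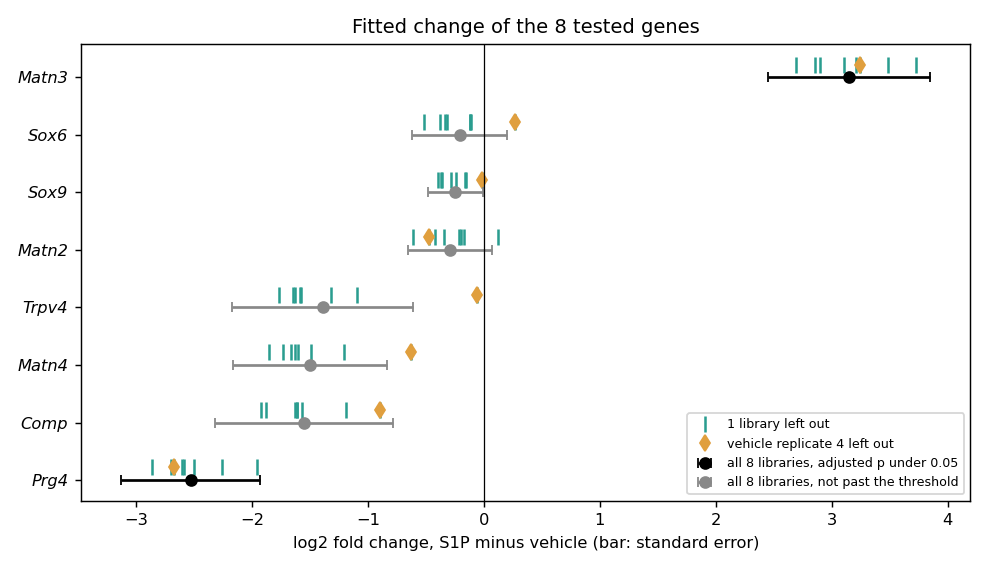
Fitted log2 fold change of the 8 tested genes, S1P minus vehicle, with its standard error (circles and bars), the values when 1 library is left out (ticks) and the value without vehicle replicate 4 (diamonds). Matn3 and Prg4 keep their side of 0 in all of these fits, while the value of Trpv4 moves from -1.39 to -0.06 without vehicle replicate 4.

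Sox9 was the most abundant of the 3 Sox factors and did not pass the test. The gene (ENSMUSG00000000567, chromosome 11, 112643338 to 112649274 in mm9) stood at 91.4, 83.3, 114 and 164 CPM in vehicle replicates 1 to 4 and at 77.2, 77.6, 103 and 123 CPM in S1P replicates 5 to 8. The groups overlapped across most of their range, with vehicle replicate 4 and S1P replicate 8 the highest of their groups. The group means were 113 ± 36.1 and 95.1 ± 22.2 CPM (SD, n = 4 per group), with a log2 fold change of -0.25 (SE 0.24, edgeR FDR = 0.536) and of -0.01 without vehicle replicate 4.

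Sox6 (ENSMUSG00000051910, chromosome 7, 122614658 to 123182458) was near the lower end of what was tested. It had 26, 24, 20 and 60 counts in vehicle replicates 1 to 4 and 23, 23, 22 and 45 in S1P replicates 5 to 8. All but vehicle replicate 4 and S1P replicate 8 lay between 1.48 and 1.85 CPM, and these 2 were at 4.36 and 3.23 CPM. The log2 fold change was -0.21 (SE 0.41, edgeR FDR = 0.776), and it became 0.26 without vehicle replicate 4. Sox5 (ENSMUSG00000041540, chromosome 6, 143776745 to 144730697) had 0, 5, 1 and 3 counts in vehicle replicates 1 to 4 and 0, 0, 3 and 2 in S1P replicates 5 to 8. With means of 0.166 and 0.091 CPM, both under the level that 3 counts give, no difference was detectable at this depth (exact two-sided permutation test, p = 0.543, where the smallest p that 4 against 4 libraries can give is 0.0286).

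The balance of Sox9 to Sox6, which does not depend on library scaling, was also compared. The log2 ratio of their counts ranged from 5.22 to 6.23 in vehicle and from 5.24 to 5.96 after S1P. The difference of the means was -0.09 (exact two-sided permutation test, p = 0.743, also 0.743 after Benjamini-Hochberg adjustment over the 2 ratios tested). Of 16 other Sox genes, 10 were found and 3 were tested, and none of the 3 passed (edgeR; 0 at an unadjusted p under 0.05, 0 with DESeq2 and 0 with limma-voom). These were Sox4, at 17.5 ± 7.30 CPM in vehicle and 17.3 CPM after S1P, Sox12, at 7.52 and 4.42 CPM, and Sox13, the third SOXD gene, at 5.15 and 3.19 CPM. Sox8, the other SOXE gene found in the table, had a mean under 1 CPM.

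The matrilins are oligomeric proteins with von Willebrand factor A domains. MATN1 and MATN3 are known mainly from cartilage, whereas MATN2 and MATN4 are made in many connective tissues. Matn3 (ENSMUSG00000020583, chromosome 12, 8954535 to 8979034) rose from a trace level. It had 2, 2, 10 and 6 counts in vehicle replicates 1 to 4, or 0.142, 0.148, 0.740 and 0.436 CPM. After S1P it had 10, 50, 82 and 40 counts in replicates 5 to 8, or 0.722, 3.63, 6.02 and 2.87 CPM. S1P replicates 6 to 8 lay above all vehicle libraries, and S1P replicate 5 lay just below vehicle replicate 3, so the groups overlapped by that pair. The means were 0.367 ± 0.284 and 3.31 ± 2.19 CPM (SD, n = 4 per group), a fitted 8.86-fold rise (log2 fold change 3.15, SE 0.70, edgeR FDR = 0.0246). Among the 663 genes called higher, it was the third by fold change. The call held in 3 of 8 leave-one-out fits, namely without vehicle replicate 3, vehicle replicate 4 or S1P replicate 5, and was lost on leaving out vehicle replicate 1, vehicle replicate 2 or any of S1P replicates 6 to 8 (edgeR FDR up to 0.0715, log2 fold change from 2.69 to 3.72 over the 8 fits). DESeq2 called it (FDR = 0.000408) and limma-voom did not (FDR = 0.0509). In vehicle only replicate 3 reached 10 counts, so Matn3 passed the filter on low counts mainly through the S1P libraries, where it was high. A filter of at least 1 CPM in 4 libraries removes the gene, which reached that level in 3.

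The region around the start of Matn3 is shown because this was the cartilage gene that rose. It is the RefSeq entry for GRCm38.p6 on chromosome 12, from 8947679 to 8947978 on the plus strand, 250 bases before and 50 bases after the start site, a different build from that of the counts. Capitals mark CATTCC or its reverse complement GGAATG, the core bound by TEAD factors.
Matn3 promoter: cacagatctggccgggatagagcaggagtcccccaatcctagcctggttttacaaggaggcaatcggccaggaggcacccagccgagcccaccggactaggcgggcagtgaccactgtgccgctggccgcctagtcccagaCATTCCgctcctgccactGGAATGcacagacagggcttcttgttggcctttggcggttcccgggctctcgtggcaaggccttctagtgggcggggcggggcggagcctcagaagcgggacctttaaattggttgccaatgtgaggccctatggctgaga
The window held CATTCC once in each orientation, starting 109 and 91 bases before the start site. At least 1 match was present in 14.7% of 32851 promoter windows of the same length, and 2 or more in 1.33%. The SOX cores ACAAT and ACAAAG, searched on both strands and able to share at most an end base with the first motif, had no match in the Matn3 window and were present in 31.0% and 18.7% of all windows. Of the 10 listed genes, 6 had a promoter entry. The window of Sox5, a gene with almost no counts, also held CATTCC once in each orientation, with 1 ACAAT, so the pair was not particular to Matn3. The window of Acan held 1 CATTCC and no SOX core. The 6 windows of Sox6 each held at least 1 SOX core, and 2 of them held 1 CATTCC. The 2 windows of Matn4 held no SOX core and 1 CATTCC between them, and the window of Trpv4 held none of the 3 motifs. A match describes the letters only.

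Matn4 (ENSMUSG00000016995, chromosome 2, 164214929 to 164230860) had the opposite sign and did not pass. It stood at 4.83, 13.4, 16.3 and 49.6 CPM in vehicle replicates 1 to 4 and at 2.38, 7.27, 9.33 and 10.7 CPM in S1P replicates 5 to 8. Vehicle replicate 4 was the highest library by a wide margin, and vehicle replicate 1 lay within the S1P range. The log2 fold change was -1.50 (SE 0.67, edgeR FDR = 0.199), and -0.63 without vehicle replicate 4. Its span shares 103 bases with the more abundant Slpi on the same strand, so its values are uncertain to that extent.

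Matn2 (ENSMUSG00000022324, chromosome 15, 34236236 to 34366229) was by far the most abundant matrilin and did not pass. It stood at 318, 159, 128 and 107 CPM in vehicle replicates 1 to 4 and at 232, 123, 110 and 117 CPM in S1P replicates 5 to 8. Vehicle replicate 1 and S1P replicate 5 were high and the other 6 libraries overlapped. The log2 fold change was -0.29 (SE 0.36, edgeR FDR = 0.642), turning to 0.12 without vehicle replicate 1 and staying at -0.16 without both high libraries, a fit added after the data were seen. Matn1, the remaining matrilin, had 9 counts in all, none of them in an S1P library. Per kilobase of annotated exon, Matn3 made up 0.0911% to 1.03% of the summed level of Matn2, Matn3 and Matn4 in vehicle and 0.635%, 5.43%, 9.38% and 4.38% in S1P replicates 5 to 8. Matn4 made up 35.8% in vehicle replicate 4, while the other 7 libraries lay between 1.22% and 13.2%.

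**Figure D3:**
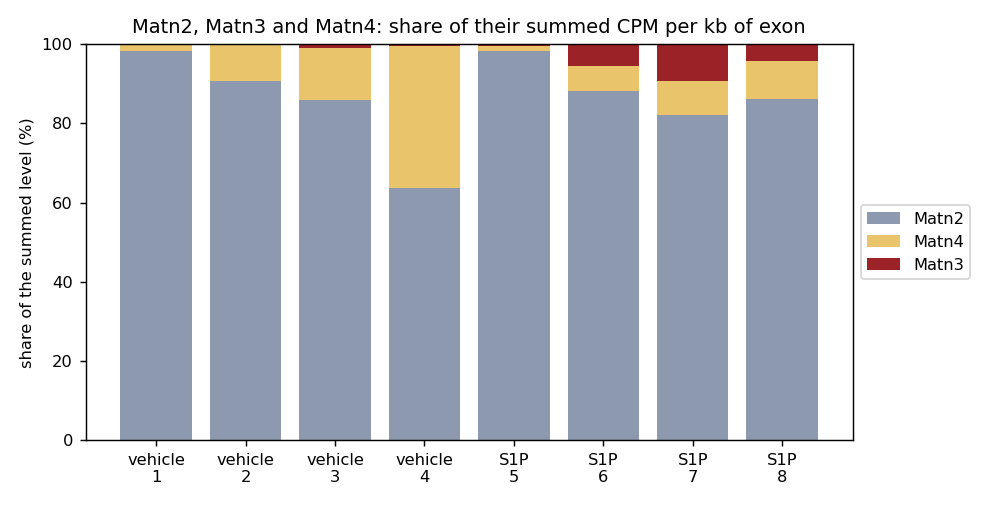
Share of each matrilin gene in the summed level of Matn2, Matn3 and Matn4 (CPM per kilobase of exon, in percent), 1 bar per library. Matn2 holds 63.7% in vehicle replicate 4 and 82.2% to 98.1% elsewhere, and Matn3 is above 4% only in S1P replicates 6, 7 and 8.

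Comp encodes cartilage oligomeric matrix protein, a pentameric thrombospondin that binds collagen fibrils and is also abundant in tendon. It was scarce in these cells (ENSMUSG00000031849, chromosome 8, 72897247 to 72906164), with 19, 2, 17 and 42 counts in vehicle replicates 1 to 4 and 1, 11, 7 and 8 in S1P replicates 5 to 8. Vehicle replicates 1, 3 and 4 lay above all S1P libraries and vehicle replicate 2 lay among them. The means were 1.45 ± 1.198 and 0.490 ± 0.305 CPM (SD, n = 4 per group), with a log2 fold change of -1.55 (SE 0.77, edgeR FDR = 0.246), and -0.90 without vehicle replicate 4. The log2 ratio of Comp to Matn2 counts differed by -1.04 between the group means (exact two-sided permutation test, p = 0.486, adjusted 0.743 over the 2 ratios). The span of Comp shares 111 bases with Crtc1, on the other strand and at 11.7 to 37.2 CPM. Reads there could be assigned to either if strand was not used. Crtc1 had the same sign as Comp, with means of 23.4 CPM in vehicle and 13.5 CPM after S1P. It did not pass (log2 fold change -0.79, edgeR FDR = 0.0883). The part of Crtc1 reads in the values of Comp was not tested.

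Among the relatives of COMP and aggrecan, 11 lectican, link protein and thrombospondin genes were found, 6 were tested and 1 fell (16.7%, against 2.9% of all tested genes). Thbs3, a pentameric thrombospondin like COMP, fell 2.42-fold, from 34.4 ± 13.4 to 14.2 CPM (log2 fold change -1.28, SE 0.24, edgeR FDR = 0.0116), and kept its call in all 8 leave-one-out fits. The other 5 did not pass, although 2 genes of the list fell without vehicle replicate 4. They include Vcan, the large proteoglycan versican of the same family as aggrecan, at 1170 ± 596 CPM in vehicle and 530 CPM after S1P (edgeR FDR = 0.0696), and Thbs1 at 919 ± 275 and 1008 CPM. Hapln1, the link protein of cartilage aggregates, had 4 counts in all.

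Prg4 fell. The gene for lubricin (ENSMUSG00000006014, chromosome 1, 152296342 to 152313495) stood at 1.28, 4.67, 8.80 and 3.05 CPM in vehicle replicates 1 to 4, or 18, 63, 119 and 42 counts. After S1P it stood at 0.289, 1.02, 0.881 and 0.862 CPM in replicates 5 to 8, or 4, 14, 12 and 12 counts. All S1P libraries lay below all vehicle libraries, with vehicle replicate 1 the nearest and vehicle replicate 3 the highest. The means were 4.45 ± 3.22 and 0.762 ± 0.323 CPM (SD, n = 4 per group), a fitted 5.78-fold fall (log2 fold change -2.53, SE 0.60, edgeR FDR = 0.0317). It ranked 15 by fold change among the 344 genes called lower. The call held in 2 of 8 leave-one-out fits, namely without vehicle replicate 1 or 4, and was lost without vehicle replicate 2 or 3 or any single S1P library (edgeR FDR up to 0.0907, log2 fold change from -2.86 to -1.96). DESeq2 called it (FDR = 0.000634) and limma-voom did not (FDR = 0.0684).

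Prg4 shares 924 bases with Tpr, a nuclear pore gene on the other strand. Tpr stood at 302 to 444 CPM over the 8 libraries, with means of 347 CPM in vehicle and 417 CPM after S1P, and did not pass (log2 fold change 0.27, edgeR FDR = 0.192). Its level thus had the opposite sign to that of Prg4. The counts carry the label "sense", but how reads in the overlap were assigned is not explained. The value of Prg4 is uncertain to that extent. Of 15 other genes of the joint surface and its lubrication, 12 were tested, 2 fell (16.7%, against 2.9% of all tested genes) and 10 did not pass (median log2 fold change -0.22). Clu, the secreted chaperone clusterin, fell 2.67-fold, from 204 ± 86.4 to 76.6 CPM (edgeR FDR = 0.0448), but stayed past the threshold in 1 of 8 leave-one-out fits, the one lacking vehicle replicate 2. Foxo3, a forkhead factor, fell 1.46-fold, from 131 ± 13.5 to 89.2 CPM (edgeR FDR = 0.0176), and missed it when vehicle replicate 2, S1P replicate 6 or S1P replicate 8 was left out (edgeR FDR up to 0.0781). Leaving out 1 library moved the count of fallers in this list between 0 and 2.

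Trpv4 (ENSMUSG00000014158, chromosome 5, 115071961 to 115108630) did not pass, and its mean difference rested on 1 library. It stood at 4.48, 13.0, 9.77 and 64.2 CPM in vehicle replicates 1 to 4 and at 2.82, 11.9, 7.34 and 12.7 CPM in S1P replicates 5 to 8. Apart from vehicle replicate 4, which was far above the next library, the groups covered the same range. The log2 fold change was -1.39 (SE 0.78, edgeR FDR = 0.298). Without vehicle replicate 4 it was -0.06 (SE 0.53, edgeR FDR = 0.955), and it was 0.24 when S1P replicate 5 was dropped as well. Of 20 other TRPV and mechanosensitive channel genes and their partners, 16 were found by the symbols searched and 9 were tested. Of these 9, 1 rose (11.1%, against 5.6% of all tested genes). Piezo1 was missed by this search and is not in these counts. It stands in the data under its older symbol Fam38a and was among the tested genes. Cav1, the scaffold of caveolae, rose 3.18-fold, from 27.9 ± 10.4 to 88.8 CPM (log2 fold change 1.67, SE 0.29, edgeR FDR = 0.00904), in all 8 leave-one-out fits. The other 8 did not pass, among them Pkd2, the polycystin channel, at 434 ± 101 and 412 CPM, and Trpm7, a channel with a kinase domain, at 253 ± 46.2 and 298 CPM. Trpv1, Trpv2, Trpv3 and Trpv6 had means under 1 CPM.

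Vehicle replicate 4 departed from the other vehicle libraries for these genes by different amounts. Trpv4, with a GC content of 59.0% in its longest annotated transcript, was 2.93 higher there on the log2 scale, against a median of 1.184 over the 1158 tested genes within 2 percentage points of that GC content. Comp, at 59.9% GC, was 1.91 higher against a median of 1.30. Matn4, at 51.2% GC, was 2.27 higher against a median of 0.10, Sox6, at 46.1% GC, 1.29 higher against -0.28, and Sox9, at 49.3% GC, 0.78 higher against -0.06. Matn2 departed the other way, by -0.80 against a median of 0.03. Matn3, at 44.9% GC, was 0.46 higher against a median of -0.36. Prg4, at 47.8% GC, departed by -0.30 against a median of -0.17. Both were called without this library. The part of GC content in these values was not tested.

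**Figure D4:**
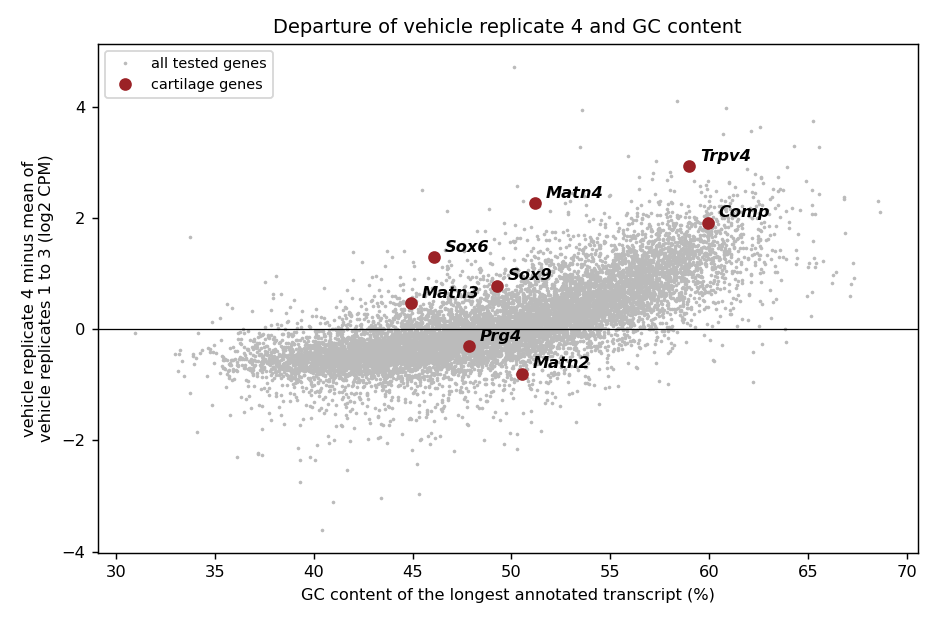
Log2 CPM of vehicle replicate 4 minus the mean of vehicle replicates 1 to 3, against the GC content of the longest annotated transcript (percent), for all tested genes with a GC value (grey) and the 8 tested cartilage genes (red, labelled). Values rise with GC content. Trpv4, Matn4, Sox6, Sox9, Matn3 and Comp lie above the median of genes of similar GC content, and Matn2 and Prg4 lie below it.

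The genes whose profiles over the 8 libraries were most like each cartilage gene were found by the root mean square difference of log2 CPM, each gene centred on its own mean. Trpv4 was closest to Matn4 among all tested genes of at least 5 CPM, at 0.42, where the spread of Trpv4 itself was 1.23. Next was Isoc2a at 0.47. Both rested on vehicle replicate 4. Over the other 7 libraries, a comparison added after the data were seen, Matn4 ranked 17 and Isoc2a 26, and the closest were Htra1 and Sema3d at 0.28 and 0.29, where the spread of Trpv4 was 0.77. The count of Trpv4 was 0.6 to 1.64 times that of Matn4 in every library, although both genes varied widely between libraries. Matn4 was in turn closest to Col27a1, a fibrillar collagen gene of cartilage, at 0.31, and then to Cytl1, a secreted factor known from cartilage, at 0.40. Neither of these passed the test. Over the 7 libraries they ranked 7 and 4, and Dkk3 and Mest were closest at 0.18 and 0.18.

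For Matn3 the closest were Itga11, the collagen-binding integrin alpha 11 chain, at 0.66, and Cep55, a cytokinesis gene, at 0.80. Both rose (log2 fold change 2.02 and 1.94, edgeR FDR = 0.00575 and 0.00597). The profiles hold the difference between the groups, so the direction of a gene close to Matn3 or Prg4 follows in part from the choice. For Prg4 the closest were Serping1, the C1 inhibitor of complement, at 0.40, which fell (log2 fold change -1.87, edgeR FDR = 0.0302), and S1pr3, a receptor of S1P, at 0.49, which did not pass (8.74 CPM in vehicle and 2.76 CPM after S1P, edgeR FDR = 0.095). Sox9 was closest to Dact3 and Tox (0.12 and 0.13), Sox6 to Faah and Tprn (0.17 and 0.17), Matn2 to Calcrl and Prkaa2 (0.15 and 0.16) and Comp to Leng8 and Ercc2 (0.77 and 0.80). None of these 8 passed. Without vehicle replicate 4, Itga11, Serping1, Calcrl and Faah were still the closest to Matn3, Prg4, Matn2 and Sox6. Dact3 ranked 3 for Sox9, and Leng8 ranked 7 for Comp. Of the other genes named, Cep55 ranked 5 for Matn3, S1pr3 4 for Prg4, Prkaa2 3 for Matn2 and Tprn 4 for Sox6. Tox fell to rank 23 for Sox9 and Ercc2 to rank 123 for Comp. Over these 7 libraries Leng8 differed from Comp by 0.73, where the spread of Comp itself was 0.98.

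Per kilobase of exon, the cartilage genes spanned several orders of magnitude in both groups. In vehicle, the mean level in CPM per kilobase was 28.4 for Matn2 and 27.3 for Sox9, whose libraries overlapped, then 5.61 for Trpv4 and 4.06 for Matn4, which also overlapped. Prg4 followed at 1.04, Comp at 0.489, Sox6 at 0.16, Matn3 at 0.122 and Sox5 at 0.0115. Over vehicle replicates 1 to 3, an average added after the data were seen, Trpv4 and Matn4 were at 2.23 and 2.22, Comp at 0.31, Sox6 at 0.115 and Matn3 at 0.114, while Matn2 was at 32.2, Sox9 at 23.3 and Prg4 at 1.15. After S1P, Matn2 and Sox9 were again highest at 23.2 and 23.01, followed by Trpv4 at 2.13 and Matn4 at 1.43. Matn3 came next at 1.10, above Prg4 at 0.178, Comp at 0.165 and Sox6 at 0.138.

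In 5 lists of the wider cartilage programme (transcription factors, growth signals, other matrix genes, chondroitin sulphate synthesis and matrix breakdown), 2 of 109 tested genes rose and 13 fell. That is 1.83% and 11.9%, where 5.6% and 2.9% of all tested genes rose and fell. The lists were chosen with earlier results known, and the difference from all genes was not tested. Of 30 other transcription factors of cartilage and skeletal development, 22 were tested, none rose, 2 fell (9.09%, against 2.9% of all tested genes) and 20 did not pass. The median log2 fold change was -0.17, and 1 to 2 fell over the leave-one-out fits and 3 with DESeq2. Epas1, the hypoxia-inducible factor HIF-2 alpha, fell 2.81-fold, from 203 ± 49.1 to 72.5 CPM (log2 fold change -1.49, SE 0.25, edgeR FDR = 0.00731), in all 8 leave-one-out fits. Pax9, a paired box factor of early sclerotome, fell 2.08-fold, from 21.6 ± 5.34 to 10.4 CPM (edgeR FDR = 0.0246), and kept its call in 3 of the 8, those lacking vehicle replicate 2 or 4 or S1P replicate 5.

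Of 38 growth signal genes of cartilage, 27 were tested, 1 rose, 4 fell (14.8%, against 2.9% of all tested genes) and 22 did not pass (median log2 fold change -0.14). Tgfbr2, the type II receptor of TGF-beta, fell 1.64-fold, from 491 ± 42.6 to 299 CPM (log2 fold change -0.72, SE 0.10, edgeR FDR = 0.00428), and Chrdl1, a BMP antagonist, fell 3.12-fold, from 2.51 ± 0.599 to 0.796 CPM (edgeR FDR = 0.0144). Both kept their call in all 8 leave-one-out fits. Tgfb3, a TGF-beta ligand, rose 2.05-fold, from 43.3 ± 7.62 to 88.8 CPM, and Ptch1, the hedgehog receptor, fell 1.67-fold, from 29.3 ± 6.39 to 17.5 CPM (edgeR FDR = 0.0272 and 0.0443), and each kept its call in 2 of the 8, Tgfb3 without vehicle replicate 4 or S1P replicate 5 and Ptch1 without vehicle replicate 1 or 4. The last, Npr2, the receptor of C-type natriuretic peptide, is named with its value known. It fell by 0.59 on the log2 scale (edgeR FDR = 0.0432) and kept its call in 2 of the 8, those lacking vehicle replicate 3 or 4 (edgeR FDR up to 0.141). The count of fallers ran from 2 to 5 over the leave-one-out fits. Ihh, Pthlh, Pth1r, Bmpr1b and Gdf5 had means under 1 CPM.

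Of 30 other cartilage matrix genes, 18 were tested, none rose, 2 fell (11.1%, against 2.9% of all tested genes) and 16 did not pass, with a median log2 fold change of -0.74. Dcn, the small proteoglycan decorin, fell 4.37-fold, from 72.8 ± 35.96 to 16.6 CPM (edgeR FDR = 0.0125), with a call that failed in the absence of S1P replicate 6 (edgeR FDR = 0.0525). Chi3l1, a chitinase-like protein secreted by chondrocytes, fell 4.18-fold, from 20.7 ± 13.1 to 4.94 CPM (edgeR FDR = 0.0331), and lost it without vehicle replicate 3 or S1P replicate 5, 6 or 8. The count of fallers was 4 without vehicle replicate 4, 0 to 4 over the leave-one-out fits and 5 with DESeq2. Of 24 genes of chondroitin sulphate and core protein synthesis, 21 were tested and none passed (edgeR, median log2 fold change -0.17). An unadjusted p under 0.05 was seen for 4 of the 21, against 24.9% of all tested genes, and 1 fell with DESeq2 and 0 with limma-voom. The tested genes include Impad1, at 433 ± 77.6 CPM in vehicle and 530 CPM after S1P, and Ugdh, at 352 ± 54.6 and 311 CPM.

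Of 25 genes of cartilage matrix breakdown and its inhibitors, 21 were tested, 1 rose (4.76%, against 5.6% of all tested genes), 5 fell (23.8%, against 2.9%) and 15 did not pass (median log2 fold change -0.60). Mmp9, a gelatinase, fell 8.75-fold, from 18.6 ± 7.30 to 2.12 CPM (log2 fold change -3.13, SE 0.40, edgeR FDR = 0.00321), in all 8 leave-one-out fits. Adamts7 and Adamts12, related proteases that both cleave COMP, went opposite ways. Adamts7 fell 2.52-fold, from 30.1 ± 9.49 to 11.95 CPM, and Adamts12 rose 1.89-fold, from 58.6 ± 11.1 to 111 CPM (edgeR FDR = 0.0131 and 0.011). Adamts12 kept its call in all 8 fits, and Adamts7 lost it without S1P replicate 6 (edgeR FDR = 0.0559). Adamts4, an aggrecanase, fell 2.34-fold, from 27.7 ± 10.7 to 11.8 CPM (edgeR FDR = 0.0356), and kept its call in 2 of the 8, those lacking vehicle replicate 1 or S1P replicate 7. The remaining fallers, Mmp2 and Mmp14, are named with their values known (log2 fold change -0.60 and -0.81) and were not called without S1P replicate 6 or 8. The count of fallers ranged from 1 to 6 over the leave-one-out fits and was 8 with DESeq2.

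**Figure D5:**
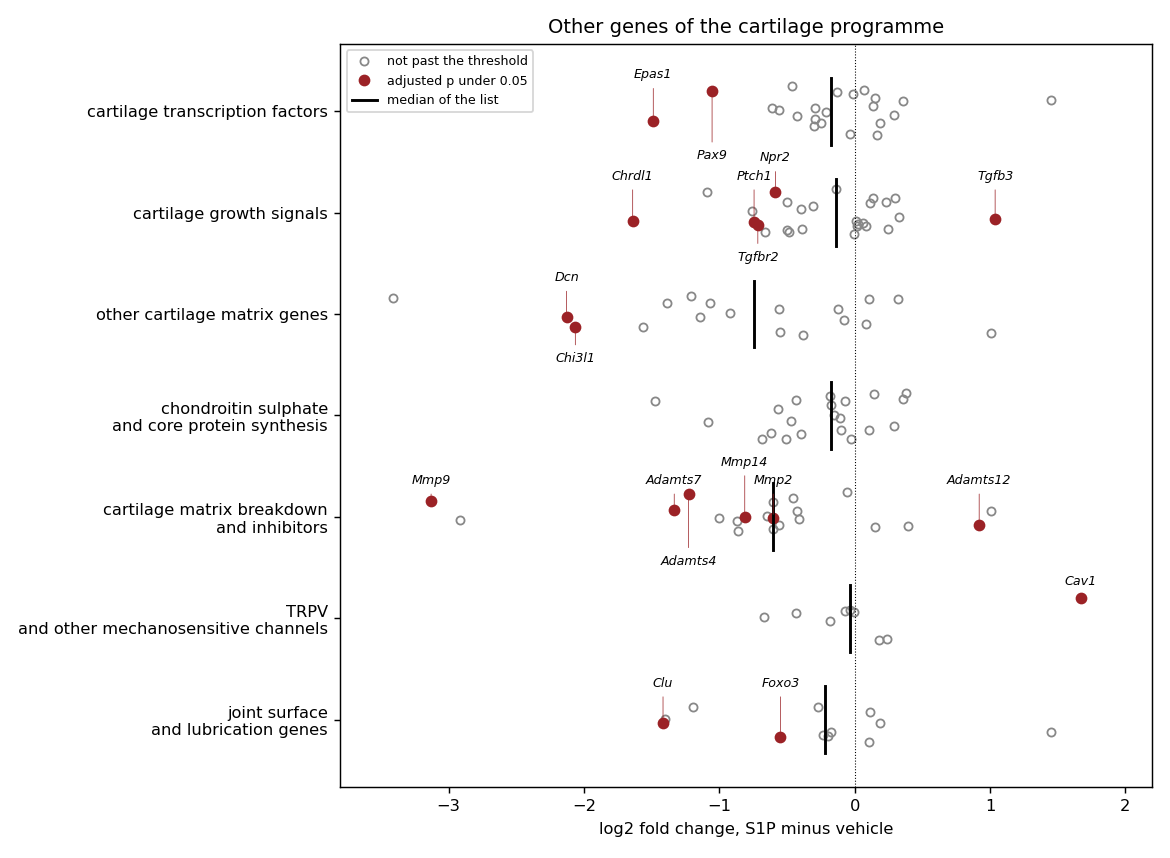
Log2 fold change, S1P minus vehicle, of each tested gene in 7 lists of the cartilage programme that leave out the 10 listed genes; filled red points are genes with an edgeR adjusted p under 0.05 (labelled), open points did not pass, and black lines are list medians. Called genes run from none of 21 in chondroitin sulphate synthesis to 6 of 21 in matrix breakdown (28.6%, against 8.5% of all tested genes). Most called genes lie below 0. Piezo1, present under its older symbol Fam38a, is not shown.

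The identity of the cells was checked against markers. All 12 mesenchymal markers were found and summed to 18339 to 24929 CPM in vehicle and 14748 to 19907 CPM after S1P, led by Col1a2 and Col3a1. None of the 11 tested passed (edgeR). An unadjusted p under 0.05 was seen for 2 of them, against 24.9% of all tested genes, and 2 fell with DESeq2 and 1 with limma-voom. Of the chondrocyte markers, Col2a1, the chain of collagen II, ranged from 61.9 to 535 CPM in vehicle and from 132 to 243 CPM after S1P (log2 fold change -0.12, edgeR FDR = 0.914), whereas Hapln1 and Matn1 were near 0. The osteoblast factor Sp7 had 4 counts and the adipocyte hormone Adipoq 8 counts in all, but other markers of both types were present. In vehicle and after S1P, Runx2 stood at 48.8 and 51.3 CPM, Spp1 at 59.5 ± 62.1 and 157 ± 111 CPM and Dmp1 at 1.74 and 0.851 CPM. Of the adipocyte markers, Pparg stood at 28.5 and 17.5 CPM, Cebpa at 4.77 and 4.72 CPM and Fabp4 at 2.46 and 6.39 CPM. All 8 muscle markers found had means under 1 CPM. The osteoblast list summed to 1263 to 3555 CPM in vehicle and 1384 to 2345 CPM after S1P, most of it Col1a1, and the adipocyte list to 31.0 to 56.2 and 22.2 to 53.2 CPM, and no tested member of either passed (edgeR; in each list 2 had an unadjusted p under 0.05 and 1 fell with DESeq2, and with limma-voom 1 osteoblast and 0 adipocyte markers fell).

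Tendon markers summed to 294 to 465 CPM in vehicle and 461 to 605 CPM after S1P, ranges that overlapped at their ends. Of 8 tested members, 1 rose (12.5%, against 5.6% of all tested genes) and 7 did not pass. Tnc, tenascin C, rose 1.67-fold, from 197 ± 48.9 to 329 CPM (edgeR FDR = 0.0358). Its call was kept in 2 of 8 leave-one-out fits, those lacking vehicle replicate 3 or 4. Tnc was also the most abundant member of the list. The tendon factors Scx, at 1.30 and 1.45 CPM, and Mkx, at 10.6 ± 2.66 and 17.2 ± 1.99 CPM, were among those not passing. Tnmd, tenomodulin, was nearly level at 72.0 ± 30.9 and 74.3 CPM (log2 fold change 0.04, edgeR FDR = 0.942). Of the 8, 2 had a negative log2 fold change, Thbs4 (-1.40) and Fmod (-0.08). The part of such cells in the values of Comp and Matn3 was not tested. Blood and immune markers summed to 14.5 to 24.5 CPM in vehicle and 9.38 to 15.2 CPM after S1P, with 3 counts of Ptprc in all. Endothelial markers summed to 36.6 to 77.1 and 17.5 to 44.3 CPM, nearly all of it Tek, with Cdh5 at 4 counts in all, and epithelial markers to 1.11 to 2.83 and 1.47 to 2.18 CPM.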

How the data were processed

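The authors deposited whole-number read counts per Ensembl gene, with symbols and mm9 positions. STAR 2.5.3a and build mm9 were used, per the submitters' processing notes. No counting tool or annotation is named. The counts carry the label "sense", without a word on how strand was used. The 8 columns, matched to samples by title, had nearly equal totals, for which no step is given. In R 4.3.3, edgeR 4.0.16 filtered the counts (filterByExpr, minimum count 10), scaled them by TMM and ran the robust quasi-likelihood test, with treatment as the only term and Benjamini-Hochberg adjustment (FDR) over all tested genes. The SE came from the F statistic. Log2 CPM used a prior count of 2. The fit was tested on simulated data. Exon lengths and GC contents came from GENCODE annotation of GRCm38, joined by Ensembl ID. The cartilage genes and lists were chosen with earlier results of these data known. Named were all 10 genes, up to 4 called genes per list with the largest change (or the 2 most abundant where fewer than 2 passed), the 2 most similar profiles, and overlapping genes. Alternatives were other scalings and filters, DESeq2 1.42.0, limma-voom (limma 3.58.1), a surrogate variable (sva 3.50.0), and leaving out libraries. Acan was not analysed here.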

Additional observations from a re-analysis of the deposited data

Results flagged for a closer look

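In 4 of 16 groups examined, a value lay far from the other libraries of the group for a tested cartilage gene. Chance gives about 1 in 20 if values are normally distributed and groups independent. Normality was not checked, and the 16 groups come from the same 8 libraries, so the flags are not a measure of excess. Trpv4 reached 64.2 CPM in vehicle replicate 4, and Sox6 reached 4.36 CPM in the same library. Sox6 reached 3.23 CPM in S1P replicate 8. Matn2 reached 232 CPM in S1P replicate 5.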

How the results depend on the processing

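No paired analysis was run, because the groups share no replicate number (1 to 4 in vehicle, 5 to 8 in S1P) and the labels pair no libraries. Sox9, Sox6, Matn4 and Trpv4 were highest in vehicle replicate 4 and S1P replicate 8. Matn2 was highest in vehicle replicate 1 and S1P replicate 5, and Matn3 in vehicle replicate 3 and S1P replicate 7. Comp and Prg4 were highest in vehicle replicates 4 and 3 and both in S1P replicate 6. Matn3, Matn4, Prg4 and Trpv4 were lowest in vehicle replicate 1 and S1P replicate 5, and Sox9 and Comp in vehicle replicate 2 and S1P replicate 5. Sox6 was lowest in vehicle replicate 3 and Matn2 in vehicle replicate 4, both with S1P replicate 7. Whether the libraries share an order of handling is not stated and was not tested. The counts of cartilage genes called, 1 higher and 1 lower, were unchanged with DESeq2 size factors, library totals alone, no filter, DESeq2 and a surrogate variable. They were 0 and 0 with limma-voom and 0 and 1 with the stricter filter, which drops Matn3 and Comp. Leaving out 1 library gave 0 to 1 in each direction. Over all genes, 663 rose and 344 fell, against 333 to 1133 and 101 to 723 without 1 library, 804 lower with DESeq2, 1471 and 1015 with a surrogate variable, and 1178 and 934 when vehicle replicate 4 and S1P replicate 5 were both dropped. Sign changes were seen only in genes that were not called. Their log2 fold changes without 1 library ran from -0.52 to 0.26 for Sox6 and from -0.61 to 0.12 for Matn2. Sox6 turned to 0.12 with a surrogate variable, 0.26 without vehicle replicate 4 and 0.35 without both libraries, Matn2 to 0.12 without vehicle replicate 1, and Sox9 and Trpv4 to 0.073 and 0.24 without both. The Sox9 to Sox6 ratio difference ranged from -0.23 to 0.11 without 1 library, turning to 0.11 without vehicle replicate 3 and 0.01 without S1P replicate 8. The cause was not tested. Depth limits Sox5, Comp and Matn3 most, with 14, 107 and 202 counts in all.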

Other observations

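Chadl, chosen after its value was seen, encodes a chondroadherin-like collagen-binding protein of cartilage. It stood at 1.28, 0.890, 1.48 and 11.4 CPM in vehicle replicates 1 to 4 and at 0.289, 0.291, 0.514 and 0.287 CPM in S1P replicates 5 to 8, with no overlap between the groups and vehicle replicate 4 far above the rest. It did not pass with all libraries (log2 fold change -3.41, edgeR FDR = 0.0505). Without vehicle replicate 4 the change was smaller and passed (log2 fold change -1.79, edgeR FDR = 0.0158). Chadl passed the filter on low counts only through the vehicle libraries, where it was high, and it was picked by its value. These values are therefore descriptive only. The groups did not overlap for 19.1% of all tested genes, 7.21% with S1P lower. Lect1, the chondromodulin gene, ranged from 3.48 to 13.8 CPM in vehicle and from 0.509 to 5.17 CPM after S1P (edgeR FDR = 0.181), and the cartilage collagen chain Col11a2 from 3.26 to 12.2 and from 1.94 to 3.54 CPM (edgeR FDR = 0.168). Col11a1, its fibril partner, stood at 540 and 572 CPM and did not pass.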
